A study of Homo sapiens with 18 samples.

Results

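The genes described here are 10 heat shock chaperone genes, chosen by name from the 63568 gene entries of the expression table. They fall into 4 classes by the place and the usual regulation of their proteins. The inducible cytosolic class held 5 genes (HSPA1A, HSPA1B, HSPH1, DNAJB1 and HSP90AA1) and the constitutive cytosolic class held 2 (HSPA8 and HSP90AB1). The endoplasmic reticulum (ER) class held HSPA5, and the mitochondrial class held 2 genes, HSPD1 and HSPE1. A mean of at least 1 TPM (transcripts per 1000000 transcripts of a library, a scale that allows for length) in the labelled libraries was reached by 8 of the 10, and the other 2, HSPA1A and HSPA1B, were not tested.

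Chaperones bind unfolded or partly folded proteins and keep them from aggregating. The HSP70 proteins (HSPA1A, HSPA1B, HSPA8, and HSPA5 in the ER) bind short stretches of a client and let go of it in a cycle driven by ATP, which J-domain proteins such as DNAJB1 start and nucleotide exchange factors such as HSPH1 complete. The HSP90 proteins (HSP90AA1 and HSP90AB1) act late in the folding of kinases and hormone receptors, and HSPD1 with its lid HSPE1 forms the folding chamber of the mitochondrial matrix. Heat shock factor 1 drives the inducible genes through heat shock elements in their promoters, while the unfolded protein response drives HSPA5. The classes are textbook ones, and no heat treatment is named in the labels of these samples.

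RNA came from HEK293, a human embryonic kidney cell line, without any genetic change named in the labels. Cells were given 500 µM 4-thiouridine, a uridine analogue that enters RNA made after its addition, for 7.5, 15, 30, 45 or 60 min, and the labelled RNA was purified through biotin and streptavidin. There were 3 libraries for each of the 5 labelling times, and 3 libraries of total RNA that had no such purification. Total replicate 1 was selected with oligo-dT, replicate 2 had its ribosomal RNA digested by RNase H, and replicate 3 was depleted with Ribo-Zero, so the spread of the total group includes the method. The question the time course addresses is how fast RNA of each gene is made, spliced and lost. The labels do not tie replicates to different cultures, and the spread behind each p-value, that of these libraries alone, may be technical.

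TPM values carry no read depth, so the depth behind each value is unknown. Labelled libraries listed mature values above 0 for 15159 to 20407 genes. Unspliced (primary) transcripts held 22.3% to 23.8% of all TPM at 7.5 min, 7.19% to 11.03% at 60 min and 0.528% to 0.879% in total RNA. Of the genes HEK293 cells are known to express, PAX2 averaged 0.927 TPM in total RNA and 5.64 TPM in labelled RNA, and NEFM averaged 0.163 and 0.459 TPM. Among genes of other cell types, PTPRC, CD3E, ALB and PECAM1 averaged at most 0.153 TPM in total RNA, HBA1 averaged 10.8 and COL1A1 averaged 1.88. The part of HBA1 and COL1A1 in the results was not tested.

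The promoter stretches of 5 genes are shown because the classes are defined by their regulation. They come from RefSeq (GRCh38.p14), lie upstream of the start sites, and run 5′ to 3′ on the gene's own strand. Capitals mark matches to GAANNTTC or TTCNNGAA, the units of the heat shock element, and in HSPA5 the ER stress element, CCAAT and CCACG set 9 bases apart, all searched on both strands.
HSPA1A chr6:31815344-31815463 (+): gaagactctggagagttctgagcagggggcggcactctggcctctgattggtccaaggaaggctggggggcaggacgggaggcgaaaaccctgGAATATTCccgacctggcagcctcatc
HSPA1B chr6:31827615-31827734 (+): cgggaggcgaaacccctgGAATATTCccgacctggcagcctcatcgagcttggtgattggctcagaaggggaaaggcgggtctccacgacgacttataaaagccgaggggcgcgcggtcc
DNAJB1 chr19:14518421-14518540 (-): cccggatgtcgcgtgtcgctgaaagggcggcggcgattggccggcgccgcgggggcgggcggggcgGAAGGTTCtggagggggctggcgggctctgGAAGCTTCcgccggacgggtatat
HSPA8 chr11:123062336-123062386 (-): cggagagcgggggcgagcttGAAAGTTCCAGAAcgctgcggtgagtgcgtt
HSPA5 chr9:125241344-125241463 (-): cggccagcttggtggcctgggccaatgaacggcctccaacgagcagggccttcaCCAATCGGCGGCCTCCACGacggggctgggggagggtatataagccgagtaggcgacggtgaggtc
The HSPA1A and HSPA1B stretches hold the same match, GAATATTC. In HSPA8 both units overlap and make a longer element of 3 units.

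Over the 250 bases upstream of every RefSeq start site, GAANNTTC was found in 7 of the 10 genes and in 5.78% of all 35116 windows. TTCNNGAA was found in 4 of the 10 genes and in 6.62% of windows. HSPH1, although of the inducible class, matched neither unit in its window, and nor did HSPA5 or HSPE1. The element of 3 units, GAANNTTC followed by NNGAA (on the other strand TTCNNGAA followed by NNTTC), overlaps both and was found in HSPA8, HSP90AA1, HSP90AB1 and HSPD1, 4 of the 10, and in 0.441% of windows. Of these 4 genes only HSP90AA1 is in the inducible class, so matches to the element of 3 units did not follow the classes. HSPD1 and HSPE1 are neighbours transcribed away from each other, and the window of HSPE1 holds neither heat shock unit, nor does that of 1 of the 2 HSPD1 start sites. The HSPD1 window with the matches (chr2:197499841-197500090) also lies upstream of the RefSeq start site of HSPE1, beyond the HSPE1 window (chr2:197500129-197500378). The HSPE1 locus of GENCODE release 29 begins at 197499994, inside that HSPD1 window. By the RefSeq start sites, the region between these genes therefore holds heat shock elements that the window of HSPE1 does not reach. The ER stress element was found in HSPA5 only among the 10, and in 0.0740% of windows. The 10 genes had 16 windows in all, between 1 and 3 each, so a gene with several start sites had more chances to match. A match says that the letters are there and nothing on binding. Only exact letters were searched, so near matches were not counted.

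HSPA1A and HSPA1B, the heat-inducible HSP70 genes, were listed at or near 0. HSPA1A read 0.50 TPM in 7.5 min replicate 1, 0.67 in 15 min replicate 3, 0.62 in 30 min replicate 2 and 0.75 in 60 min replicate 3, and 0 in the other labelled libraries. In total RNA it read 0.26, 0.11 and 0.36 TPM in replicates 1, 2 and 3. HSPA1B read 4.23 TPM in 7.5 min replicate 3 and 0 in every other labelled library, and 0, 2.41 and 0.28 TPM in total replicates 1, 2 and 3. These values cannot be read as the level of HSPA1 RNA in the cells. The transcripts of the genes share most of their sequence, since 71.4% of the 50 nt windows of HSPA1B are found in HSPA1A, so reads can be divided between them. In addition, GENCODE release 29 gives the name HSPA1A to 10 transcripts, of which 2 are on the primary assembly, and the name HSPA1B to 8, of which 1 is. The other 8 chaperone genes have all their named transcripts on the primary assembly. Entries of the expression table without a gene symbol held 13.3% to 22.8% of the mature TPM of labelled libraries, and which of them hold HSPA1 reads was not tested. One of them, ENSG00000231555.4, a single-exon protein-coding gene off the primary assembly, averaged 975 TPM at 7.5 min and 1678 TPM at 60 min. The tables used here pair it with no name, and whether it is a copy of HSPA1A or HSPA1B was not tested, so abundant HSPA1 RNA may be listed under another ID.

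From 7.5 to 60 min, mature RNA of 4 of the 8 tested chaperone genes rose and that of 1 fell. Over all 16739 genes tested with limma, 15.8% were higher and 4.21% were lower. DNAJB1 and HSPA5 rose most, HSPA8 and HSP90AB1 rose by about as much as each other, and HSPE1 fell. The median log2 change was 0.65 over the 8 chaperone genes and 0.24 over all genes tested. A TPM is a share of the library: as primary transcripts lost share, mature transcripts as a whole gained, and scaling by the median ratio moved the all-gene median to -0.05. The 60 min changes are therefore also given relative to the median of all genes.

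**Figure D1:**
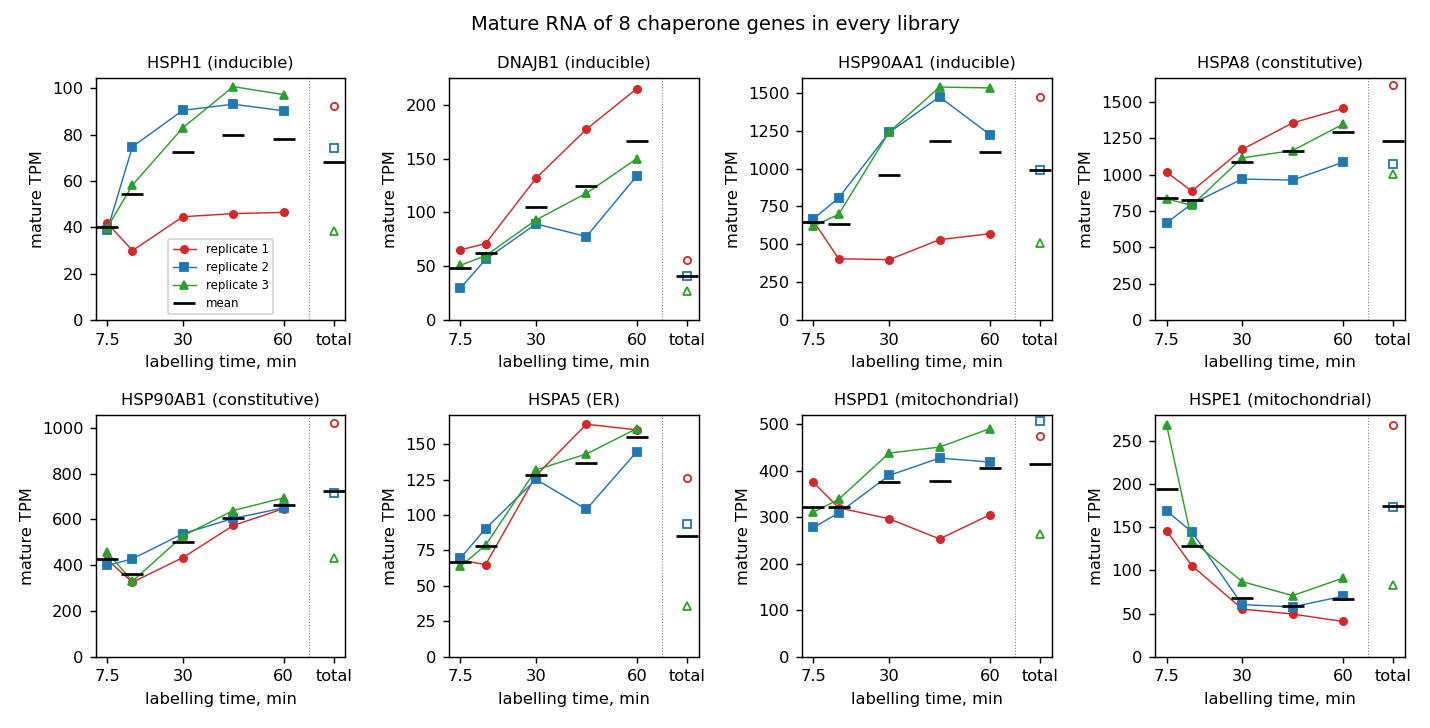
Mature TPM (y axis, from 0) against labelling time in min (x axis) for 8 chaperone genes, with total RNA at the right (open symbols). Each symbol is a library, lines join libraries with the same replicate number, and bars mark means of 3. DNAJB1 went from 48.6 to 166 TPM and HSPE1 from 194 to 67.3 TPM, and replicate 1 lay below the others in HSPH1 and HSP90AA1 from 15 min on.

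In the inducible class, DNAJB1, the J-domain partner of HSP70, read 65.2, 29.6 and 50.9 TPM at 7.5 min in replicates 1, 2 and 3 and 215, 134 and 150 TPM at 60 min. All 3 late libraries lay above all 3 early ones. The rise was 1.80 on the log2 scale (SE 0.32, limma adjusted p = 0.00106), or 1.55 above the median of all genes. Means between these times were 62.4 ± 7.69 TPM at 15 min, 105 ± 23.5 at 30 min and 124 ± 50.2 at 45 min (SD, n = 3).

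HSPH1, the large HSP70-like exchange factor, read 41.9, 38.7 and 39.9 TPM at 7.5 min and 46.5, 90.4 and 97.4 TPM at 60 min. The groups did not overlap, but replicate 1 gained far less than the others. The log2 change was 0.87 (SE 0.39, limma adjusted p = 0.134), or 0.63 relative to the median of all genes. HSP90AA1, the inducible HSP90, read 652, 668 and 621 TPM at 7.5 min and 570, 1224 and 1532 TPM at 60 min. Replicate 1 was lower late than early and the others were higher, so the groups overlapped. Its log2 change was 0.66 (SE 0.48, limma adjusted p = 0.392), or 0.42 relative to that median.

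In the constitutive class, HSPA8, the housekeeping HSP70, read 1017, 668 and 835 TPM at 7.5 min and 1455, 1086 and 1348 TPM at 60 min. The highest early library lay just below the lowest late one. The rise was 0.64 on the log2 scale (SE 0.19, limma adjusted p = 0.0266), which lost its call when 7.5 min replicate 2 or 3, or 60 min replicate 1 or 3, was left out (adjusted p 0.0657 to 0.114). HSP90AB1, the housekeeping HSP90, read 424, 399 and 456 TPM at 7.5 min and 647, 650 and 694 TPM at 60 min. These groups lay far apart, and the rise was 0.64 (SE 0.15, limma adjusted p = 0.00806). Relative to the median of all genes the rises were 0.39 for HSPA8 and 0.40 for HSP90AB1, and under median-ratio scaling neither passed the test (limma adjusted p = 0.471 and 0.229).

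HSPA5, known as BiP, the HSP70 of the ER, read 68.3, 69.5 and 63.8 TPM at 7.5 min and 160, 145 and 161 TPM at 60 min. Replicates lay close together at both times. The rise was 1.196 on the log2 scale (SE 0.18, limma adjusted p = 3.89e-04), or 0.95 above the median of all genes. At 30 min it had already read 128, 125 and 132 TPM.

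The mitochondrial genes, which share a promoter region and act in one complex, took different courses. HSPD1, the chamber subunit, read 375, 278 and 311 TPM at 7.5 min and 305, 419 and 491 TPM at 60 min. The groups overlapped, and the log2 change was 0.32 (SE 0.24, limma adjusted p = 0.403), or 0.07 relative to the median of all genes. HSPE1, the lid subunit, read 146, 169 and 268 TPM at 7.5 min and 40.8, 70.0 and 91.0 TPM at 60 min. All late libraries lay below all early ones, and HSPE1 fell by 1.54 on the log2 scale (SE 0.30, limma adjusted p = 0.00198), which is -1.78 relative to the median of all genes. Most of the fall came early, with 128 ± 20.3 TPM at 15 min and 67.48 ± 17.0 at 30 min (SD, n = 3).

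The ratio of HSPD1 to HSPE1 mature TPM within a library does not depend on how that library is scaled. It was 2.58, 1.65 and 1.16 at 7.5 min, 5.37, 6.47 and 5.04 at 30 min and 7.48, 5.98 and 5.39 at 60 min. In total RNA it was 1.77, 2.93 and 3.19. The early and late libraries did not overlap, while the total libraries lay between them or within the early range; an exact permutation test of 3 against 3 cannot go below 0.1 and was not run.

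HSPE1 also has the shortest transcripts of the 10 genes, with a longest coding transcript of 950 nt in GENCODE release 29 against 2264 to 5191 nt for the others. Among genes whose longest coding transcript was under 1000 nt, 424 were tested, the median log2 change was -0.80 and 35.6% were lower. From 2000 nt up to 4000 nt, 4703 genes were tested, the median was 0.40 and 1.76% were lower. The part of transcript length in the fall of HSPE1 was not tested. Other loci of GENCODE release 29 overlap HSPE1. The HSPD1 locus spans it on the other strand, and whether counting used strand is not stated in the labels or files. A readthrough gene, HSPE1-MOB4, shares its strand; its mature RNA was listed at no more than 1.37 TPM in any labelled library, and its primary RNA averaged 5.16 TPM at 7.5 min and 3.44 TPM at 60 min. Primary values of HSPE1 and HSPD1 are therefore uncertain, since reads of these loci could be divided between them.

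**Figure D2:**
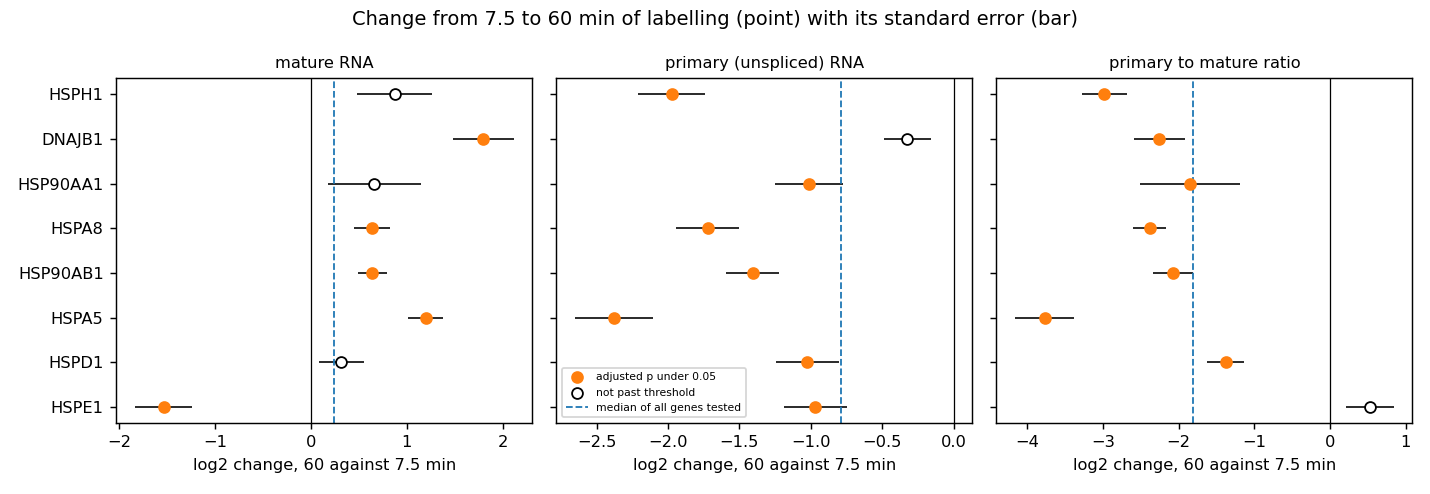
Log2 change from 7.5 to 60 min (x axis) of mature RNA, primary RNA and their ratio for 8 chaperone genes (y axis), with standard errors as bars. Filled points passed an adjusted p of 0.05 and the dashed line is the median of all genes tested: 0.24, -0.79 and -1.81 in the 3 panels. HSPE1 lay on the other side of the median from HSPA5 in mature RNA and in the ratio.

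Labelled replicate 1 stood apart from replicates 2 and 3 in several of these genes. At 60 min its log2 value minus the mean of the other libraries was -1.26 in HSP90AA1, -0.997 in HSPH1, -0.95 in HSPE1 and -0.57 in HSPD1. Of all genes tested, 4.20% and 7.90% had a lower difference than HSP90AA1 and HSPH1. In DNAJB1 the difference was 0.60, with 89.6% of genes lower. At 7.5 min the differences of HSP90AA1 and HSPH1 were 0.02 and 0.09, while DNAJB1, HSPD1 and HSPE1 already stood at 0.73, 0.35 and -0.54. With replicate 1 left out at all times, a choice made after seeing the data, all 8 genes passed the test: 7 rose and HSPE1 fell. Of all genes tested in that way, 14% were higher and 3.01% lower. HSPH1 then rose by 1.23 (SE 0.18, limma adjusted p = 0.00200), HSP90AA1 by 1.09 (SE 0.16, adjusted p = 0.00229) and HSPD1 by 0.62 (SE 0.15, adjusted p = 0.0206). What set replicate 1 apart was not tested.

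HSP90AA1 and HSP90AB1 encode the inducible and the constitutive form of 1 chaperone, and their ratio showed the same split. It was 1.54, 1.67 and 1.36 at 7.5 min. At 60 min it was 0.881 in replicate 1 and 1.88 and 2.21 in replicates 2 and 3, so the late libraries lay on both sides of the early ones. In total RNA it was 1.44, 1.38 and 1.17.

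By 30 min, mature RNA of 2 chaperone genes had risen and that of 1 had fallen, while 5.70% of all genes were higher and 2.84% lower. HSPA5 rose by 0.92 (SE 0.18, limma adjusted p = 0.00525), a call lost under median-ratio scaling (0.73, adjusted p = 0.0600). DNAJB1 rose by 1.14 (SE 0.32, limma adjusted p = 0.0359), a call lost when 7.5 min replicate 2 or 3 or any 30 min library was left out (adjusted p 0.0669 to 0.155) and under median-ratio scaling (adjusted p = 0.157). HSPE1 fell by 1.49 (SE 0.30, limma adjusted p = 0.00529). The other 5 had log2 changes of 0.21 to 0.78, none past the threshold.

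Primary transcripts of 7 of the 8 chaperone genes fell from 7.5 to 60 min, as did 60.7% of the 20010 genes tested, while 0.56% were higher. HSPA5 fell most, from 41.7, 23.4 and 32.1 primary TPM to 4.36, 4.78 and 6.90, which is -2.38 on the log2 scale (SE 0.27, limma adjusted p = 1.17e-04). HSPH1 fell from 33.8, 35.0 and 32.3 to 6.12, 7.69 and 10.1 primary TPM, a log2 change of -1.97 (SE 0.23, adjusted p = 1.29e-04). These groups lay far apart in every library. HSPA8, HSP90AB1, HSPD1, HSP90AA1 and HSPE1 changed by -1.72, -1.41, -1.02, -1.01 and -0.97, where the median of all genes was -0.79. DNAJB1 did not pass the test, at -0.32 on the log2 scale (SE 0.17, limma adjusted p = 0.110). Its primary TPM averaged 2.85 ± 0.534 at 7.5 min, 3.93 ± 0.335 at 30 min and 2.06 ± 0.0917 at 60 min (SD, n = 3). The calls depend on the scale: under median-ratio scaling, which centres all genes near 0, only 2 of the 8 were lower and DNAJB1 was higher.

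The unspliced share, primary TPM as a percent of primary plus mature TPM, describes splicing within each gene. The ratio of primary to mature TPM fell from 7.5 to 60 min in 7 of the 8 chaperone genes, where 62.8% of the 13879 genes tested fell. The unspliced share of HSPA5 was 32.2 ± 6.49% at 7.5 min, 11.6 ± 1.66% at 30 min and 3.32 ± 0.737% at 60 min (SD, n = 3). Its log2 ratio changed by -3.77 (SE 0.39, limma adjusted p = 1.01e-05), against a median of -1.81 over all genes. In HSPH1 the share went from 45.6 ± 1.61% to 9.63 ± 1.90%, which is -2.98 in the log2 ratio (SE 0.30, limma adjusted p = 9.82e-06). HSPH1 was the only one of the 8 above the all-gene median share at 7.5 min, which was 39.7%.

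HSPA8 went from 14.4 ± 0.188% to 3.13 ± 0.299% and HSP90AB1 from 18.2 ± 3.11% to 4.99 ± 0.268%. DNAJB1 went from 5.84 ± 1.25% to 1.27 ± 0.255% and HSPD1 from 11.5 ± 0.596% to 4.79 ± 0.457%. HSPD1 thus kept more of its early share than the others that fell, with a log2 ratio change of -1.37 (SE 0.24, limma adjusted p = 3.32e-04). With the ratio centred on its median in each library, HSPA5, HSPH1 and HSPA8 still passed the test as lower (limma adjusted p = 0.00209, 0.0398 and 0.0452), while DNAJB1, HSP90AA1, HSP90AB1 and HSPD1 did not.

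HSP90AA1 had the lowest unspliced share at every time, 1.24 ± 0.0775% at 7.5 min and 0.346 ± 0.0705% at 60 min, and 0.930% of genes had a lower share at 7.5 min. Its log2 ratio changed by -1.85 (SE 0.66, limma adjusted p = 0.0254), a call lost when any single library was left out (adjusted p 0.0505 to 0.0698). The primary model of a gene spans its whole locus and TPM are per length. The HSP90AA1 locus of GENCODE release 29 spans 58962 nt, against 3379 nt for its principal transcript, so the low primary value also carries the length of that span. Other genes carry this limit too: HSPD1 spans 30157 nt against 2455 nt for its longest principal transcript, HSPH1 27415 against 5191 and DNAJB1 15001 against 2264. HSPA8 spans 5742 nt against 2463 and HSPA5 6478 against 3908, so unspliced shares of different genes are not directly comparable. How much of each share comes from the span was not tested.

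HSPE1 took the opposite course. Its unspliced share was 11.7 ± 3.69% at 7.5 min, 16.03 ± 1.78% at 15 min and 26.4 ± 0.505% at 30 min, and then 22.8 ± 2.45% at 45 min and 15.9 ± 4.97% at 60 min (SD, n = 3). It was 0.660 ± 0.221% in total RNA. At 7.5 min 6.74% of genes had a lower share than HSPE1, and at 45 min 59.0% did. The log2 ratio change from 7.5 to 60 min was 0.53 (SE 0.31, limma adjusted p = 0.157), while the median gene stood at -1.81 and 1.09% of genes were higher. With the ratio centred on its median in each library, HSPE1 was higher by 2.37 (SE 0.41, limma adjusted p = 0.00140). Primary HSPE1 was 23.9 ± 1.78 TPM at 7.5 min and 24.2 ± 6.12 at 30 min, so up to 30 min the share moved with the fall of the mature form.

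**Figure D3:**
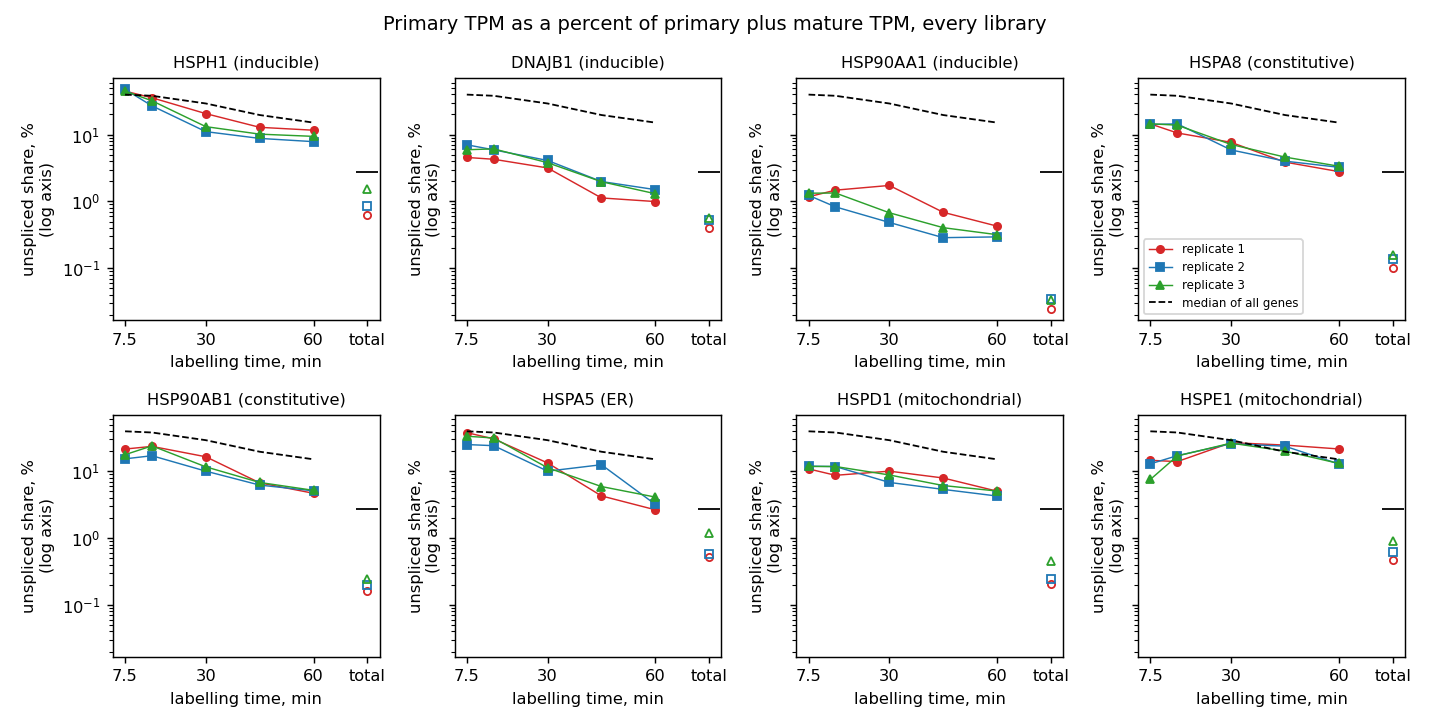
Unspliced share in percent on a log axis against labelling time in min for 8 chaperone genes, one symbol per library, with total RNA at the right. The dashed line is the median over all genes with a value (39.7% at 7.5 min, 15.1% at 60 min). HSPE1 reached 26.4% at 30 min, and the other 7 genes were lower at 60 than at 7.5 min.

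Single introns gave a closer view of splicing. The authors' deposited intron table gives the excised share of an intron from junction reads as the authors' mean over 3 replicates, so no error can be given. It listed 61 introns of 7 chaperone genes and none of HSPA1A, HSPA1B or DNAJB1. The median excised share of the 61 introns went from 62.4% at 7.5 min to 79.6% at 30 min and 91.0% at 60 min. Over all 21782 introns it went from 54.2% to 69.6% and 84.4%. The median length of listed introns ran from 186 nt in HSP90AB1 to 1217 nt in HSPE1, against 1424 nt over all introns. The part of length in this difference was not tested. The authors sorted introns into fast, medium and slow: 37 of the 61 were fast, 21 medium and 3 slow, while of all introns 39.4% were fast and 17.7% slow. All 61 were in the constitutive class of exon use, as were 20578 of all 21782 introns.

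The 10 introns of HSP90AA1 were all fast, with excised shares of 74.4% to 92.3% at 7.5 min and 86.9% to 97.2% at 60 min. The earliest was intron 3 (326 nt, chr14:102551769-102552094, hg19, minus strand), at 92.3% at 7.5 min, above 99.4% of all introns in the table. HSP90AB1 had 10 fast introns of 11 and averaged 70.9% at 7.5 min. Its exception, intron 6 (448 nt, chr6:44218337-44218784, plus strand), stood at 53.0% at 7.5 min and 81.1% at 60 min. HSPA8 was slower, with 2 fast and 6 medium introns and a mean of 51.2% at 7.5 min and 87.0% at 60 min. Its lowest was intron 2 (321 nt, chr11:122931507-122931827, minus strand), at 35.9% and 79.8%.

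HSPA5 started at a mean of 58.0% over 7 introns and reached 94.1%, the highest mean of the 7 genes at 60 min. HSPH1 started lowest, at a mean of 42.0% over 12 of its 17 introns, and reached 88.7%. Its intron 10 (2190 nt, chr13:31719906-31722095, minus strand) gained 58.2 percentage points, the most of the 61.

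The mitochondrial genes held all 3 slow introns, and all were in HSPD1. They were intron 3 (1763 nt, chr2:198360101-198361863, minus strand), intron 4 (541 nt, chr2:198359477-198360017) and intron 7 (3027 nt, chr2:198355021-198358047). At 60 min they were excised to 73.4%, 66.1% and 70.2%, and intron 4 was above only 11.3% of all introns. Intron 9 of the same gene (510 nt, chr2:198353216-198353725) stood at 79.6% at 7.5 min and 94.99% at 60 min. Introns 3 and 7 are the longest of the 11 in this gene, while intron 4 is close in length to intron 9. The 3′ splice site scores of introns 3, 4, 7 and 9 in the authors' deposited intron table were 6.89, 3.88, 6.78 and 8.99. Low scores also stood in fast introns of other chaperone genes, with 3.87 in HSP90AB1 intron 3 and 3.16 in HSPH1 intron 7. The part of length or of these scores in excision was not tested.

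Both listed introns of HSPE1 went down before they went up. Intron 1 (634 nt, chr2:198365164-198365797, plus strand) read 69.5%, 66.0%, 50.3%, 55.4% and 68.9% at the 5 times. Intron 2 (1800 nt, chr2:198365963-198367762) read 77.7%, 69.7%, 60.8%, 71.6% and 78.6%. Introns lower at 30 than at 7.5 min numbered 6 of the 61 (both of HSPE1, 3 of HSPD1 and 1 of HSP90AA1), against 18.6% of all introns. Excision of HSPE1 introns was thus lowest when its unspliced share was highest, in values from the same libraries.

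**Figure D4:**
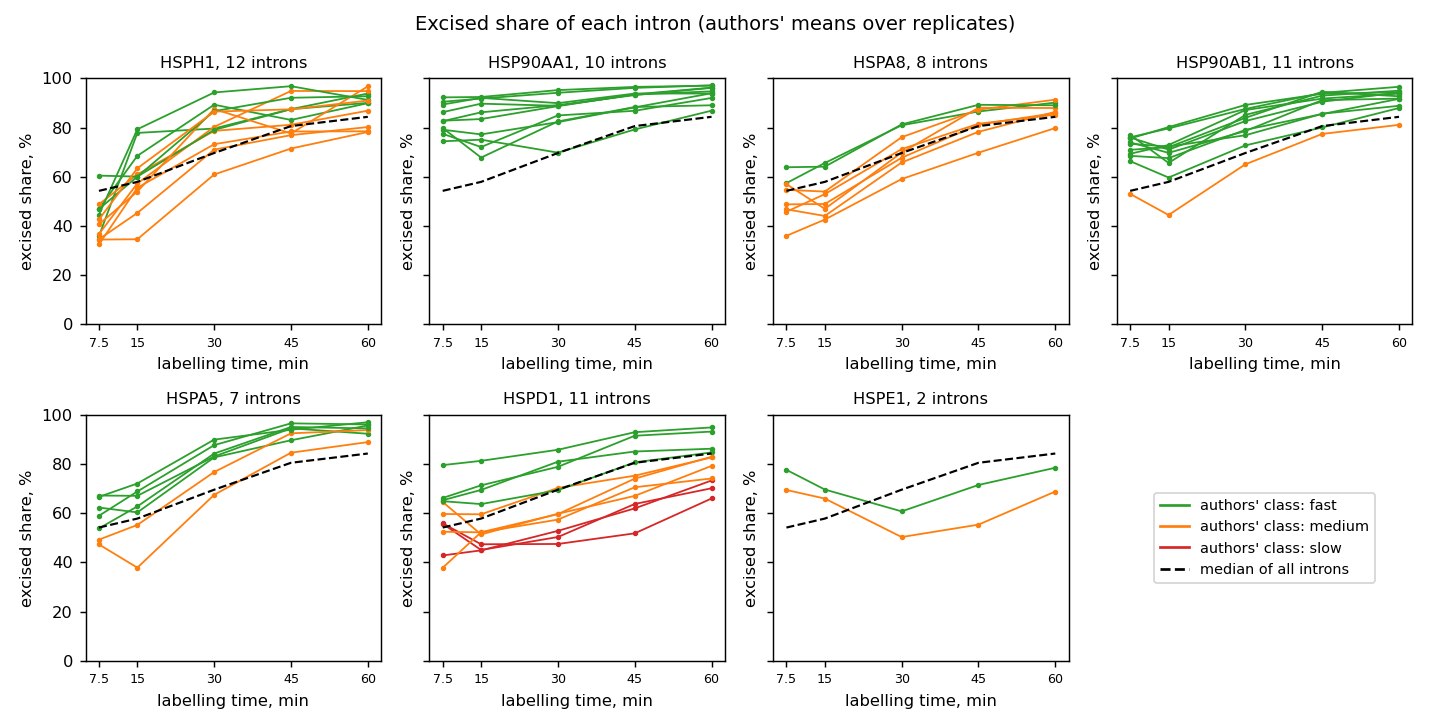
Excised share in percent (y axis) against labelling time in min (x axis) for 61 introns of 7 chaperone genes, one line per intron, coloured by the authors' class. The dashed line is the median of all introns, which went from 54.2% to 84.4%. HSP90AA1 introns started at 74.4% or higher and the 2 HSPE1 introns were lowest at 30 min.

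Total RNA, in which most RNA predates the label, was compared with 60 min labelled RNA. Of the 8 chaperone genes, 1 was higher and 2 were lower in total RNA, where 5.24% of the 16580 genes tested were higher and 40.1% lower, with a median of -0.84. DNAJB1 read 55.6, 41.0 and 26.6 TPM in total replicates 1, 2 and 3, below all its 60 min libraries, or -2.02 on the log2 scale (SE 0.34, limma adjusted p = 1.29e-04). HSPA5 read 126, 93.7 and 36.0 TPM, a change of -1.03 (SE 0.33, limma adjusted p = 0.0155), which lost its call without total replicate 3 (-0.51, adjusted p = 0.0844) or with labelled replicate 1 left out at all times (adjusted p = 0.0593). HSPE1 read 268, 173 and 82.6 TPM, a change of 1.28 (SE 0.37, limma adjusted p = 0.00974), lost without total replicate 1 or 60 min replicate 1 (adjusted p = 0.0574 and 0.0612). The other 5 had changes between -0.21 and 0.04. Relative to the median of all genes they were higher by 0.63 to 0.87, and under median-ratio scaling HSPA8, HSP90AB1 and HSPD1 passed the test as higher in total RNA. Among total libraries all 8 genes read lowest in the Ribo-Zero library, and all but HSPD1 read highest in the oligo-dT library, so the method moves with these values and its part was not tested.

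On the TPM scale, which is per length, the order of mean levels in total RNA was HSPA8 (1231 ± 334), HSP90AA1 (990 ± 484), HSP90AB1 (723 ± 294), HSPD1 (415 ± 132), HSPE1 (174 ± 92.7), HSPA5 (85.2 ± 45.6), HSPH1 (68.3 ± 27.5) and DNAJB1 (41.1 ± 14.5; SD, n = 3). Each neighbouring pair in that order overlapped in range. Replicates 1 and 2 gave this same order, and replicate 3 exchanged HSPA5 and HSPH1. The authors' deposited copy table put HSPA8 at 117, 403 and 267 mature copies per cell in the oligo-dT, RNase H and Ribo-Zero libraries and DNAJB1 at 5.12, 16.6 and 6.10. HSP90AA1 stood at 107, 371 and 131 copies and its primary transcript at 0.0477, 0.155 and 0.0317. Copies of all 8 genes were highest in the RNase H library, so they serve for order within a library.

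The authors' deposited rate table lists 15120 genes, among them 8 chaperone genes, and gives scores centred over genes without replicates. All 8 were in the authors' cluster c1, which holds 13.7% of genes. The log10 synthesis scores ran from 0.65 in HSPH1 to 1.78 in HSPA8, where the median gene had 0.12. HSPA8, HSP90AA1 and HSP90AB1 exceeded at least 99.4% of genes. The log10 degradation scores were low in 7 of the 8: -0.67 in HSPE1, -0.58 in HSP90AB1, -0.53 in HSP90AA1, -0.52 in HSPA8, -0.51 in HSPD1, -0.40 in HSPH1 and -0.30 in HSPA5. DNAJB1 stood at -0.12, near the median gene at -0.04. Medians over cluster c1 were 0.68 for synthesis and -0.39 for degradation, so part of these genes lay near the middle of their cluster. Lower scores mark more stable RNA, and HSPE1 was more stable by this score than all but 3.84% of genes. The rates use the labelled and total values above, so they are not a separate measurement. As for the time course of HSPE1, the part of its short transcript in this score was not tested.

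The polyribosome, cytoplasm and translation scores in the authors' deposited table draw on other libraries, and the copies score draws on total RNA. The log2 polyribosome to cytosol score was -1.11 in HSPH1 and HSP90AA1, -0.90 in HSPA5, -0.88 in HSP90AB1, -0.83 in HSPD1 and -0.82 in HSPA8, and at most 7.69% of genes had a lower score than any of these 6. The median gene had -0.05. HSPE1 stood at 0.57, above 96.6% of genes, and DNAJB1 at 0.15. The translation score from ribosome profiling was high in all 8, from 2.28 in DNAJB1 to 4.57 in HSP90AA1 on a log10 scale, against 0.44 in the median gene. The copies score was likewise lowest in DNAJB1, at 0.91, and highest in HSPA8, at 2.37, whose translation score was 4.31. The part of RNA level in the translation score was not tested. The log2 cytoplasm to nucleus score ran from 0.12 in HSPD1 to 0.66 in HSPE1, with a median gene at 0.03. HSPE1 and HSPD1, subunits of 1 complex, thus lay at the opposite ends of the 8 in this score.

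**Figure D5:**
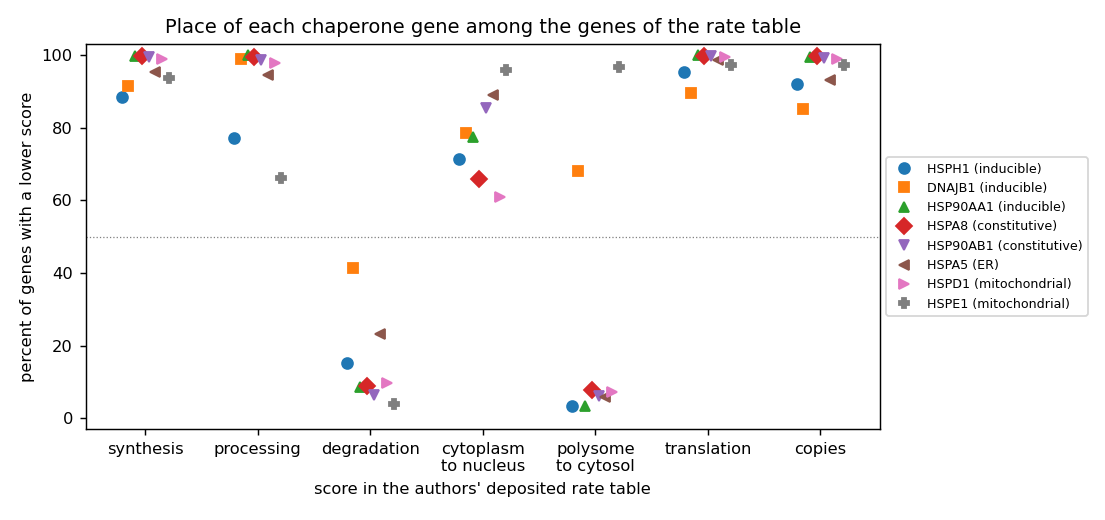
Percent of genes with a lower score (y axis) for 7 scores of the authors' deposited rate table (x axis), one symbol per chaperone gene. Synthesis, translation and copies placed all 8 genes at 85.1% or higher, degradation placed 7 at 23.2% or lower, and in the polysome score HSPE1 (96.6%) and DNAJB1 (68.0%) lay above the other 6.

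Other genes of the chaperone network gave a background for these. Of 75 listed genes in 8 groups, 69 were tested in mature RNA from 7.5 to 60 min, and 14 rose and 2 fell, against 15.8% and 4.21% of all genes tested. The median log2 change was 0.28, near the 0.24 of all genes. Among heat shock factors and their regulators 1 of 5 tested rose, HSF2, by 1.63 (SE 0.23, limma adjusted p = 1.74e-04). Of other HSP70 and HSP110 genes 2 of 5 rose: HSPA13, which sits at the ER, by 1.84 (SE 0.23), and HSPA14 by 1.06 (SE 0.23). Of J-domain genes 2 of 12 rose, DNAJA2 by 1.05 (SE 0.21) and DNAJA1 by 0.90 (SE 0.27).

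Of the HSP70 partners 3 of 9 rose, led by the exchange factors BAG4, by 1.89 (SE 0.21), and BAG5, by 1.85 (SE 0.25). Of 13 HSP90 cochaperones 1 rose, STIP1, the adaptor between HSP70 and HSP90, by 0.54 (SE 0.16, limma adjusted p = 0.0226). Of 13 other ER chaperones 3 rose, led by the J-domain proteins DNAJB9, by 2.50 (SE 0.35), and DNAJC3, by 1.30 (SE 0.27), both cofactors of HSPA5. Of 10 other mitochondrial chaperones 2 rose, the exchange factor GRPEL2, by 3.23 (SE 0.41), and HSPA9, the HSP70 of the matrix, by 0.80 (SE 0.21). Both tested genes with HSPB symbols fell: HSPB1 changed by -2.56 (SE 0.72, limma adjusted p = 0.0206) and HSPB11 by -0.91 (SE 0.25, adjusted p = 0.0180). HSPB1 averaged 14.3 TPM at 7.5 min and 1.49 TPM at 60 min, and the late value is near the 1 TPM added before taking logs.

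Primary transcripts of the network fell in 56 of 70 tested genes and rose in none, against 60.7% lower and 0.56% higher of all genes tested. All 13 HSP90 cochaperones and 11 of 13 ER chaperones were among those that fell. In total against 60 min RNA, 7 of 69 were higher and 23 lower, against 5.24% and 40.1% of all genes tested.

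The genes whose mature values were most alike over the 15 labelled libraries were sought among 10127 genes with a mean of at least 10 TPM, by Pearson's r of log2 values as a description. For HSPA8 they were TSC22D1 (r = 0.96), EIF1 (0.95) and DUSP3 (0.95). For HSPA5 they were GAS5, a host of small nucleolar RNAs (0.98), ZNF420 (0.98) and ZFP91 (0.97), and for HSPD1 FXR1 (0.91), CTNNAL1 (0.89) and LPGAT1 (0.88). The libraries share labelling time and replicate number, so genes with the same trend correlate. For HSPA1B the measure is empty, since that gene was above 0 in 1 labelled library: the top match, RNU7-77P (r = 1.00), reads as a gene present in that library alone.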

How the data were processed

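RNA of 15 labelled and 3 total HEK293 libraries was analysed from values the authors deposited. Reads were processed with Bowtie 1.0.1 and RSEM 1.2.11 on hg19, per the submitters' processing notes. Deposited TPM values, per the file headers and the authors' notes, cover each gene's mature transcripts and 1 added isoform over the whole locus, the primary transcript. The deposited copies per cell are a signal scaled by the authors with spike-ins. The authors' deposited intron table gives excised shares as a fraction, shown here as percent, with splice site scores and lengths on a log10 scale. The authors' deposited rate table gives centred log10 synthesis, degradation and translation scores, log2 compartment ratios, and a processing score whose log base is not stated and which is used for rank only. Linear rates in the deposited intron table have no stated unit and are not reported here.

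Values were tested on log2(TPM + 1), and for primary against mature RNA on log2 of the ratio with 0.1 added to each, so changes of low genes are understated. Filters were a mean of 1 TPM mature and 0.1 TPM primary. limma 3.58.1 (R 4.3.3), with a trend and Benjamini-Hochberg adjustment over all genes tested, was run two-sided at a threshold of 0.05. All labelled libraries shared 1 estimate of spread, and the total comparison used all 18 libraries. Tested on simulated data for mature RNA at 60 against 7.5 min (16739 genes), limma recovered 14% of changes of 1 and 43% of changes of 2 on the log2 scale, with 3 false calls. Tables were handled with Python 3.11.15, pandas 2.3.3 and numpy 2.4.6. Gene symbols were matched for 52526 of 63568 IDs (82.6%). Promoter windows are RefSeq's for GRCh38.p14, and 10 of 10 genes had one. Copies per cell deposited for whole loci were not used.

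All 10 chaperone genes are named. Of the other network genes, the 2 of each group with the largest change past the threshold are named. HSPE1-MOB4 was added after its values were seen. Members and gene lists were chosen with earlier results of these data known. Alternatives were other scalings, pseudocounts and filters, a replicate block, each library left out in turn, and, chosen after seeing the data, labelled replicate 1 left out at all times. 1 gene of the HEK293 list is not reported here.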

Additional observations from a re-analysis of the deposited data

How the results depend on the processing

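Of 472 values of single chaperone genes under alternative settings, 402 kept their direction and their side of the threshold, 36 lost the call, 13 gained it and 21 changed direction. The fall of mature HSPE1 and the rises of DNAJB1 and HSPA5 at 60 against 7.5 min kept their calls under every alternative run. The number of chaperone genes called at 60 min was 3 under median-ratio scaling, 3 rescaled over mature transcripts, 8 without labelled replicate 1 at all times, and 4 to 5 with single libraries left out. At 30 min it was 1 under median-ratio scaling, 5 without labelled replicate 1, and 2 to 3 with single libraries left out. For primary RNA it was 3 under median-ratio scaling and 7 with any single library left out. For the ratio it was 4 when centred and 6 with any single library left out. For total RNA it was 5 under median-ratio scaling, 1 without labelled replicate 1, and 2 to 3 with single libraries left out. Ranked among protein-coding genes alone, 5 rather than 8 chaperone genes were in the top 5% of copies per cell in the oligo-dT library.

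With a replicate block, 6 chaperone genes were called in mature RNA at 60 min, 5 at 30 min, 7 in primary RNA and 7 in the ratio. The added calls in mature RNA were HSPH1 at 60 min (limma adjusted p = 0.0115) and HSPH1 and HSPA8 at 30 min (0.0345 and 0.0277). The labels do not say what a number marks: 18 of 30 same-numbered pairs correlated by over 0.1 (range -0.01 to 0.34), and 13 of 15 libraries correlated best with their own number.

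Median-ratio scaling turned the log2 change of HSPD1 mature RNA to -0.030. In primary RNA it turned DNAJB1 to 0.75, HSP90AA1 to 0.23, HSP90AB1 to 0.056, HSPD1 to 0.41 and HSPE1 to 0.44. In total against 60 min RNA it turned HSPH1 to 0.79, HSP90AA1 to 0.83 and HSPA8 to 0.91. Centring turned the ratio of HSPD1 to 0.46. In the total comparison, rescaling over mature transcripts turned HSP90AB1 to -0.073 and HSPD1 to -0.11. With single libraries left out there, HSPH1 ran from -0.54 to 0.16, HSP90AA1 from -0.60 to 0.24, HSPA8 from -0.31 to 0.033, HSP90AB1 from -0.25 to 0.37 and HSPD1 from -0.18 to 0.30. HSPD1 stood at -0.18 without labelled replicate 1. Scaling moves all genes together; the cause of the other changes was not tested.

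Over all genes, calls in mature RNA at 60 min were 2653 higher and 705 lower, against 1297 and 1307 under median-ratio scaling. In primary RNA they were 112 and 12139, against 2921 and 3250, and in total RNA 869 and 6653, against 2857 and 2516. In the ratio they were 151 and 8716, against 1779 and 2071 when centred. At 30 min they were 954 and 476, against 517 and 630 under median-ratio scaling and 1869 and 742 with the block. Depth is unknown in TPM, so no counting error can be given.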

Other observations

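Among the 719 gene IDs without a symbol in the tables used here, without a primary value and off the primary assembly of GENCODE release 29, 1 stood far above the rest. It was chosen after its values were seen, and the tables used here pair it with no gene name. The ID ENSG00000231555.4, a single-exon protein-coding gene in the authors' deposited table, averaged 975 ± 158 TPM at 7.5 min, 1057 ± 156 at 15 min and 1206 ± 259 at 30 min, and then 1487 ± 359 at 45 min and 1678 ± 379 at 60 min (SD, n = 3). In total RNA it averaged 492 ± 107 TPM. All 3 libraries at 60 min (1395 to 2109 TPM) lay above all 3 at 7.5 min (881 to 1157 TPM) and above all 3 of total RNA (393 to 606 TPM). The next of these IDs by mean, ENSG00000212866.5, averaged 10.2 ± 4.34 TPM at 7.5 min and 20.1 ± 4.34 at 60 min.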
